A study of Mus musculus with 16 samples.

Results

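The 10 genes described here, *Per1*, *Per2*, *Per3*, *Cry1*, *Cry2*, *Bmal1* (also written *Arntl*), *Nr1d1*, *Nr1d2*, *Dbp* and *Ciart*, belong to the circadian clock. They were taken by symbol from the 55359 genes counted in whole dorsal skin of 16 mice, and all 10 had enough reads to be tested in every comparison. The mice were wild-type C57Bl/6 animals (C57Bl/6N in the text of the study) aged 8 weeks, and the sample labels place their hair follicles in telogen, the resting phase. The 4 UVB males and the 4 UVB females had received 3 exposures to ultraviolet B on the back, 1 every 2 days, and were sampled on day 5, 6 h past the final exposure. The 4 no-UVB males and the 4 no-UVB females were controls of the same strain and age without irradiation. Each library is 1 mouse and a mixture of all cell types of the skin at a single time. The hour of the day at which each mouse was sampled is not given in the sources used here.

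Almost every mammalian cell holds a molecular clock built from a feedback loop of transcription. BMAL1 pairs with CLOCK, or with its relative NPAS2, binds E-boxes and activates the *Per* and *Cry* genes, whose proteins then repress the pair that made them. The same activators drive *Nr1d1* and *Nr1d2*, which encode the nuclear receptors REV-ERBα and REV-ERBβ, repressors of *Bmal1* at RORE sites. They also drive the output genes *Dbp*, an activator that binds D-boxes, and *Ciart* (CHRONO), a further repressor. In skin the clock is known to run in keratinocytes, fibroblasts and hair follicle cells, and DNA repair and cell division there follow the time of day. *Per1* is also known as an early response gene and a target of glucocorticoids.

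The sequences below show where the binding motifs named above lie just before the start sites of these genes. Windows of 250 bases before the start of the Ensembl canonical transcript were read from the GRCm39 genome, and 4 motifs were searched on both strands beside the RORE, which is given by name. These were the E-box CACGTG, its variant CACGTT, which reads AACGTG on the other strand, the D-box TTATGTAA or TTACGTAA, and the cyclic AMP response element TGACGTCA. None of these motifs overlaps another in the 10 windows. The E-box, present in 6.29% of 21627 protein-coding promoters, was found before *Per1*, *Cry1* and *Ciart*. The variant, present in 4.17%, was found before *Cry1*, *Cry2* and *Nr1d1*. The D-box, present in 0.943%, was found before *Per2* and *Per3*, and the RORE, present in 0.305%, before *Dbp*. The cyclic AMP response element, present in 1.69%, was found before none of the 10. A match of letters is a description and not a measured binding site.

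*Per1*, *Ciart* and *Cry1* are shown first for the E-box, which stands in capitals. The *Per1* stretch is chr11:68989018-68989267 (plus strand) and ends at the base before the start, with the E-box 22 to 17 bases before it. The *Ciart* stretch is chr3:95789564-95789644 (minus strand), with E-boxes 42 to 37 and 28 to 23 bases before the start; another lies 100 to 95 bases before it. The *Cry1* stretch is chr10:85020961-85020990 (minus strand), with the E-box 29 to 24 bases before the start.
Per1: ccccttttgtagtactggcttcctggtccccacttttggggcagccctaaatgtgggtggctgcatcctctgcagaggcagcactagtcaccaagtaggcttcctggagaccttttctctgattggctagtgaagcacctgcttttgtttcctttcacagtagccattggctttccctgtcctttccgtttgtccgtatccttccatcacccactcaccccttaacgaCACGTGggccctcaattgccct
Ciart: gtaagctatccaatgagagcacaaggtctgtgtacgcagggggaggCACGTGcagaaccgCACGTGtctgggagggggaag
Cry1: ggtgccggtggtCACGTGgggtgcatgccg

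*Per2* and *Per3* are shown for the D-box, the motif that the *Dbp* protein binds, in capitals. The *Per2* stretch is chr1:91387070-91387296 (minus strand), with the D-box 125 to 118 bases before the start. The *Per3* stretch is chr4:151129141-151129390 (minus strand), with D-boxes 187 to 180 and 140 to 133 bases before the start.
Per2: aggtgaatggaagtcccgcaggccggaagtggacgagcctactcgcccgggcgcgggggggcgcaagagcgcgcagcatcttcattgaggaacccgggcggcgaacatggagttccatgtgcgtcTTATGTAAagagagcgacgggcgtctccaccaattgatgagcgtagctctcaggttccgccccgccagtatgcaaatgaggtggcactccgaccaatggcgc
Per3: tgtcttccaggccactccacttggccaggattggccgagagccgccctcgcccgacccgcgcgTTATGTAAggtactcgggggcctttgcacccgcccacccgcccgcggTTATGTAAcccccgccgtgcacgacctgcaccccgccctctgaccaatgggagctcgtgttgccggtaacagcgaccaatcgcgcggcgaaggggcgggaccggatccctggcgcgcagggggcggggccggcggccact

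*Nr1d1* and *Dbp*, which passed a 2-fold fall in males with all 8 mice in the fit, carry other motifs in these windows. The *Nr1d1* stretch is chr11:98666189-98666409 (minus strand), with the variant E-box in capitals 72 to 67 bases before the start. The *Dbp* stretch is chr7:45354310-45354339 (plus strand), with the RORE in capitals 193 to 183 bases before the start.
Nr1d1: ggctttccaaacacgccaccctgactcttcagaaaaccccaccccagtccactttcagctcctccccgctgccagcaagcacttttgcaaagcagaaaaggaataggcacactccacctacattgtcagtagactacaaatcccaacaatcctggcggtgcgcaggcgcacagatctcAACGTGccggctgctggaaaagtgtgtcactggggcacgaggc
Dbp: cattggccaAATATAGGTCAgtgtcccgcc

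The deposited values were whole-number gene counts, and reads on genes numbered 16495776 to 33404831 per mouse. A clock gene held 135 to 6270 reads in a library, and levels are given as CPM, counts per 1000000 reads on genes after TMM scaling between libraries. Within the no-UVB males the libraries did not form 1 cloud. No-UVB males 1 and 2 had summed levels of 10 immediate-early genes at 1213 and 1514 CPM, against 367.3 to 615.7 CPM in the other 14 mice. The same pair had 2394 and 2467 CPM over 9 genes that glucocorticoids induce, against 705.1 to 1277 CPM in the others. No-UVB males 3 and 4 had 99.68 and 151.1 CPM over 8 markers of the growing hair follicle, against 16.98 to 35.82 CPM in the other 14 mice. *Krt71*, a keratin of the inner root sheath of growing hair, was at 21.1 and 39.9 CPM in no-UVB males 3 and 4 and at 1.75 CPM or less in every other mouse, which goes against the telogen label for those animals. Results that rest on the no-UVB males are therefore also given without males 1 and 2 and without males 3 and 4 for the 10 clock genes, and in part for the other genes and lists. This choice was made after these values were seen.

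The clock genes spanned a wide range of levels. Divided by the length of the canonical transcript, *Dbp* was highest at 72.5 ± 23.7 CPM per kb (SD over 16 mice), followed by *Nr1d1* at 47.5 ± 15.5, *Nr1d2* at 27.7 ± 3.78 and *Per1* at 23.5 ± 8.52. *Cry2* (17.5 ± 2.52) and *Per3* (16.4 ± 3.13) lay next, and *Cry2* was above *Per3* in 11 of 16 mice. *Per2* (8.79 ± 2.25), *Ciart* (6.95 ± 1.92) and *Cry1* (6.57 ± 1.62) were lower, and *Bmal1* was lowest at 3.29 ± 0.491 CPM per kb. *Ciart* was above *Cry1* in 7 of 16 mice, so that the order of these neighbours did not exceed their spread. *Dbp* and *Nr1d1* were above the gene next in order in 16 of 16 mice. The SD covers all 4 groups and so includes the differences described next.

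**Figure D1:**
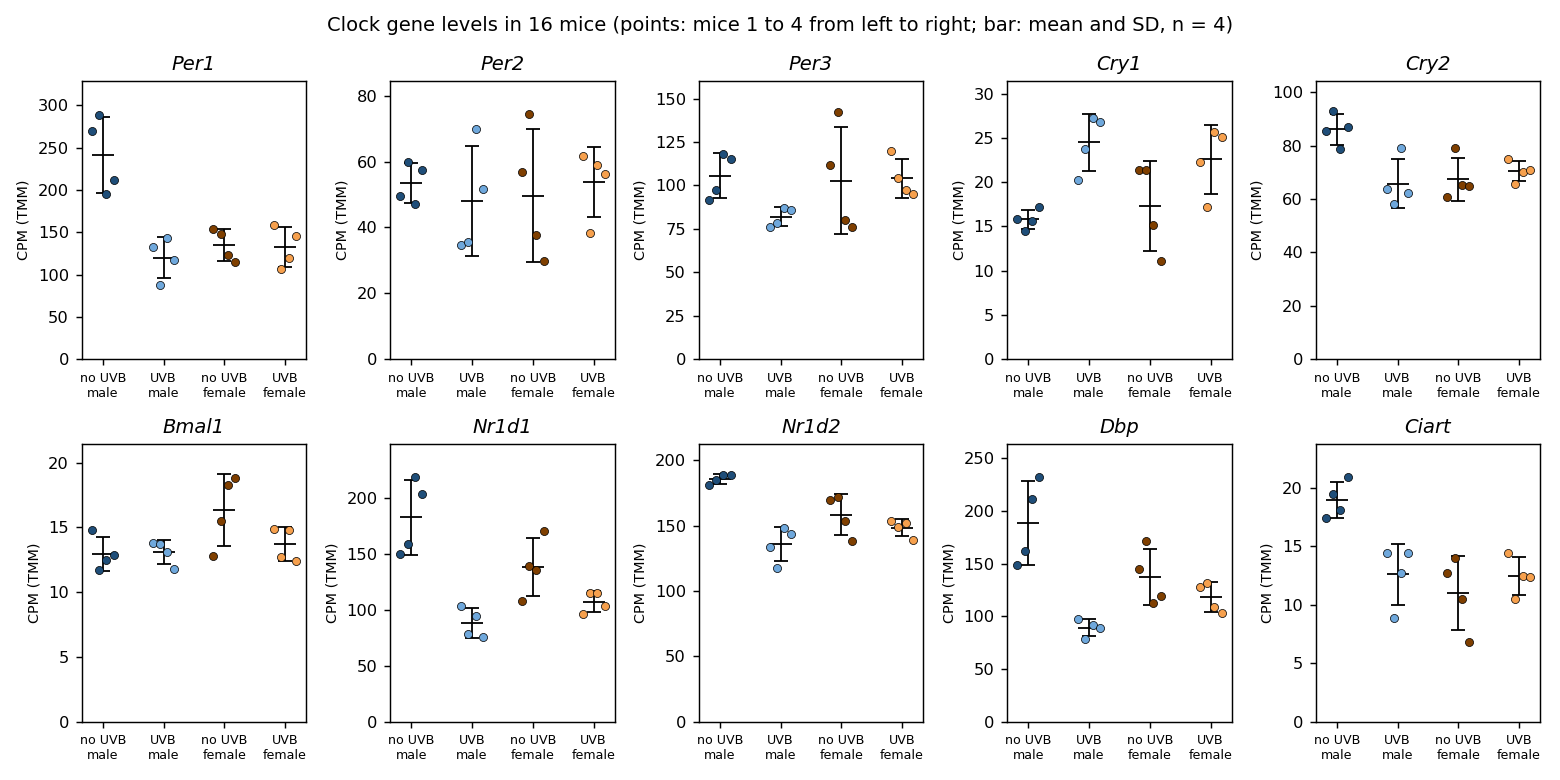
Each panel plots 1 clock gene in CPM (linear axis from 0), with 1 point per mouse (1 to 4 from left to right) and bars for the mean and SD of the 4 mice of each group. For *Per1*, *Per3*, *Nr1d1*, *Nr1d2*, *Dbp* and *Ciart* the 4 no-UVB males lie above the 4 UVB males, while for *Cry1* they lie below them.

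In males, UVB went with lower levels of most clock genes. Calls were made by the edgeR quasi-likelihood test over 16535 genes, where the Benjamini-Hochberg adjusted p had to be under 0.1. Of the 10 clock genes 7 fell, 1 rose and 2 did not pass the test. Over all tested genes 30.5% fell and 29.0% rose in males, a broad response against which these counts have to be read. *Dbp* and *Nr1d1* also passed a 2-fold change, as 3.31% of all genes did downward. The median log2 fold change was -0.40 over the 10 genes and -0.02 over all genes tested. The same 7 falls and 1 rise were counted by DESeq2's Wald test, without no-UVB males 1 and 2 and without no-UVB males 3 and 4. The genes past 2-fold turned with the controls, since without no-UVB males 3 and 4 *Dbp* and *Nr1d1* were both at -0.76 on the log2 scale and *Per1* alone passed, at -1.17. Each of the 8 calls stayed past the threshold in all 8 fits that left out 1 male. Because whole skin was sequenced, fewer cells that express a gene and less of its RNA per cell cannot be told apart. The hour at which each mouse was sampled is not given, so its part in the UVB and sex comparisons was not tested.

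Of the *Per* genes, the repressors that the clock activates through E-boxes, *Per1* moved furthest. *Per1* was at 270, 289, 195 and 212 CPM in the no-UVB males and at 132, 88.1, 143 and 117 CPM in the UVB males. Every UVB male lay below every no-UVB male, and no-UVB males 1 and 2 held the highest levels of all 16 mice. *Per1* fell by 0.98 on the log2 scale (SE 0.172, adjusted p = 0.00134), and its level fell by 49.5%. Without no-UVB males 1 and 2 the log2 fold change of *Per1* was -0.73 (adjusted p = 0.0111), and without males 3 and 4 it was -1.17 (adjusted p = 0.00101).

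*Per3* was at 91.8, 97.4, 118 and 115 CPM in the no-UVB males and at 75.9, 78.6, 87.0 and 86.0 CPM in the UVB males. The groups did not overlap, and *Per3* fell by 0.35 on the log2 scale (SE 0.0865, adjusted p = 0.00593), with values of -0.48 without no-UVB males 1 and 2 and -0.17 without 3 and 4. *Per2* was at 49.7, 60.0, 47.0 and 57.5 CPM without UVB and at 34.7, 35.7, 70.0 and 51.8 CPM after it. UVB males 1 and 2 lay below the no-UVB males and UVB male 3 above them, so that the groups overlapped. The log2 fold change of *Per2* was -0.14 (SE 0.224, adjusted p = 0.641).

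The *Cry* genes, whose proteins hold the BMAL1 complex in check together with PER, went in opposite directions in males. *Cry1* was at 15.8, 14.5, 15.6 and 17.2 CPM in the no-UVB males and at 20.2, 23.7, 27.2 and 26.8 CPM in the UVB males. It was the only one of the 10 that rose in males, with a log2 fold change of 0.66 (SE 0.102, adjusted p = 0.000294) and no overlap between the groups, and of 0.61 without no-UVB males 1 and 2 and 0.73 without 3 and 4. *Cry2* was at 85.6, 93.0, 78.8 and 87.2 CPM without UVB and at 63.7, 58.2, 79.2 and 62.2 CPM after it. UVB male 3 reached the range of the no-UVB males, and *Cry2* fell by 0.37 on the log2 scale (SE 0.0928, adjusted p = 0.00658).

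The nuclear receptor genes both fell in males. *Nr1d1* was at 150, 159, 219 and 204 CPM in the no-UVB males and at 104, 78.9, 94.2 and 76.2 CPM in the UVB males. The groups were well separated, with the higher levels in no-UVB males 3 and 4 rather than in 1 and 2. *Nr1d1* fell by 1.03 on the log2 scale (SE 0.145, adjusted p = 0.000326), and its level fell by 50.9%. Its log2 fold change was -1.23 without no-UVB males 1 and 2 and -0.76 without males 3 and 4. *Nr1d2* lay between 181 and 189 CPM in the no-UVB males and between 118 and 148 CPM in the UVB males, and fell by 0.43 on the log2 scale (SE 0.0702, adjusted p = 0.00042).

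*Bmal1*, the activator that REV-ERBα represses, showed no such shift in males. Its levels were 14.8, 11.7, 12.5 and 12.9 CPM without UVB and 13.8, 13.7, 13.1 and 11.8 CPM after it. The groups overlapped throughout, and the log2 fold change was 0.03 (SE 0.0954, adjusted p = 0.784).

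The output genes *Dbp* and *Ciart* fell in males. *Dbp* was at 149, 162, 211 and 232 CPM in the no-UVB males and at 97.1, 78.7, 92.1 and 88.9 CPM in the UVB males. As for *Nr1d1*, the no-UVB males 3 and 4 were the highest, and no UVB male reached the lowest control. *Dbp* fell by 1.06 on the log2 scale (SE 0.137, adjusted p = 0.00017), and its level fell by 51.9%. This was the largest fall of the 10 with all 8 males, but without no-UVB males 3 and 4 *Per1* fell further (-1.17). The log2 fold change of *Dbp* was -1.28 without no-UVB males 1 and 2 and -0.76 without males 3 and 4, with adjusted p values of 6.54e-06 and 6.94e-05. *Ciart* was at 17.4, 19.5, 18.1 and 20.9 CPM without UVB and at 14.4, 8.87, 12.7 and 14.4 CPM after it. It fell by 0.55 on the log2 scale (SE 0.133, adjusted p = 0.00484), with no overlap. In all, 6 of the 10 genes had lower, non-overlapping levels in UVB males, as did 24.3% of all genes tested, and 1 had higher ones, as did 22.9%.

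**Figure D2:**
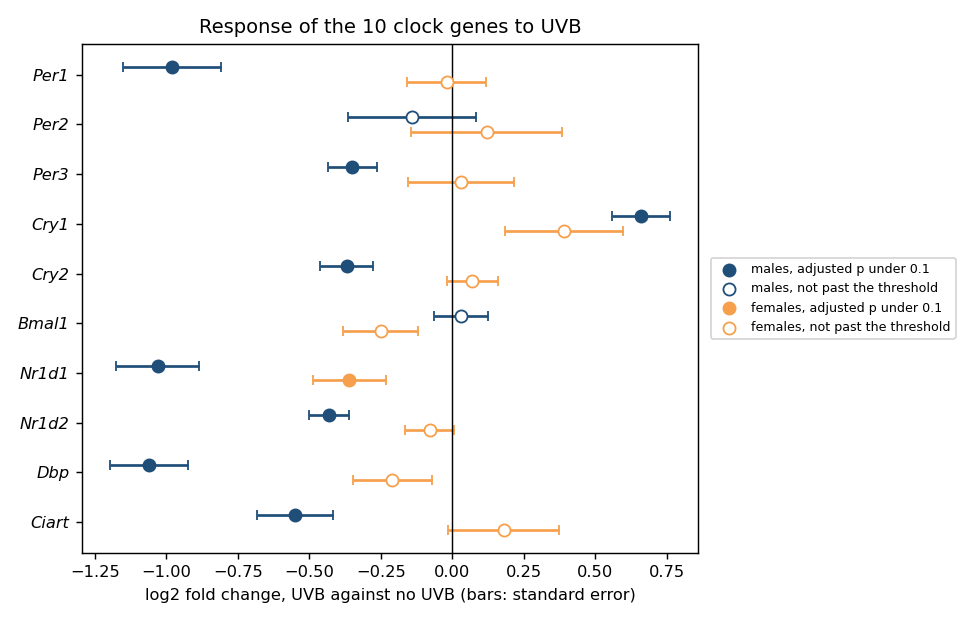
Points give the edgeR log2 fold change of UVB against no UVB for each clock gene, in males (blue) and females (orange), with bars of 1 standard error, and filled points mark an adjusted p under 0.1. Male values for *Dbp*, *Nr1d1* and *Per1* lie near -1, while 9 of the 10 female points are open.

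In females, 1 clock gene passed the same test. *Nr1d1* fell, 0 of the 10 rose and none passed 2-fold. Of the 16883 genes tested 10.6% fell and 12.8% rose, and 1.08% and 1.63% did so past 2-fold. At an unadjusted p under 0.05, 1 of the 10 passed against 30.3% of all genes, and DESeq2 called 0 higher and 1 lower. The median of the log2 fold change was 0.00 for the clock genes and 0.00 for all genes. No clock gene had female groups that did not overlap, against 10.1% of all genes with lower and 11.1% with higher non-overlapping levels.

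*Nr1d1* was at 108, 139, 136 and 171 CPM in the no-UVB females and at 96.4, 115, 115 and 104 CPM in the UVB females. UVB females 2 and 3 lay above no-UVB female 1, so that the groups overlapped. The log2 fold change was -0.36 (SE 0.129, adjusted p = 0.0862), and this call held in 2 of 8 fits with 1 female removed. *Dbp* was at 145, 171, 113 and 119 CPM without UVB and at 128, 132, 109 and 103 CPM after it, with a log2 fold change of -0.21 (SE 0.137, adjusted p = 0.338). *Per1*, at 154, 148, 123 and 115 CPM without UVB and 159, 106, 120 and 145 CPM after it, had a log2 fold change of -0.02 (SE 0.137, adjusted p = 0.932).

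The no-UVB females differed widely among themselves in several clock genes. *Per2* was at 56.8, 74.6, 37.7 and 29.7 CPM in no-UVB females 1 to 4 and at 61.7, 38.2, 58.9 and 56.2 CPM in the UVB females. *Cry1* was at 21.4, 21.4, 15.2 and 11.1 CPM without UVB and at 22.3, 17.2, 25.6 and 25.1 CPM after it. For both genes no-UVB females 1 and 2 were high and 3 and 4 low, and the UVB females spread between and around them. *Bmal1* ran the other way, at 12.8, 15.5, 18.3 and 18.8 CPM in no-UVB females 1 to 4, while the UVB females were at 14.9, 12.7, 14.8 and 12.4 CPM. *Per3*, at 112, 142, 80.2 and 76.1 CPM, and *Ciart*, at 12.7, 14.0, 10.5 and 6.82 CPM, followed *Per2* in these controls. None of these 5 genes passed the test in females, with adjusted p values from 0.231 (*Bmal1*) to 0.932 (*Per3*).

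The female result depended on which controls were kept, a choice made after these values were seen. With no-UVB females 1 and 2 left out, *Per2* (log2 fold change 0.67, adjusted p = 0.0564), *Per3* (0.42, 0.0451) and *Cry1* (0.78, 0.0312) rose after UVB, and *Bmal1* (-0.43, 0.0453) and *Nr1d1* (-0.51, 0.0287) fell. With no-UVB females 3 and 4 left out, *Dbp* alone passed the test (-0.41, adjusted p = 0.0893), and the log2 fold change of *Nr1d1* was -0.19 (adjusted p = 0.389). The values of *Per2* and *Per3* changed sign between these fits, from -0.28 each without females 3 and 4 to 0.67 and 0.42 without females 1 and 2.

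Whether the response itself differed between the sexes was tested in 1 fit over all 16 mice. The difference, male response minus female response, was below 0 at an adjusted p under 0.1 for 5 of the 10 clock genes and above 0 for none. Among the 17406 genes tested 4.25% were lower in this way and 2.75% higher. At an unadjusted p under 0.05, 6 of the 10 passed against 20.8% of all genes, and DESeq2 called 0 higher and 6 lower. *Per1* differed by -0.98 on the log2 scale (SE 0.235, adjusted p = 0.0395) and *Dbp* by -0.86 (SE 0.21, adjusted p = 0.0413). Both stayed past the threshold in all 16 fits that left out 1 mouse. *Nr1d1* (-0.68, SE 0.205, adjusted p = 0.0805), *Cry2* (-0.45, SE 0.133, adjusted p = 0.0749) and *Nr1d2* (-0.36, SE 0.11, adjusted p = 0.0836) also differed, but in 4, 6 and 6 of those 16 fits.

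The remaining clock genes did not pass the test of the difference. *Ciart* had a male response lower by 0.75 on the log2 scale, given as a difference of -0.75 (SE 0.257, adjusted p = 0.115). *Cry1* differed by 0.25 (SE 0.251, adjusted p = 0.601), so that its rise in males was not shown to be particular to them. *Per2*, *Per3* and *Bmal1* had adjusted p values of 0.737, 0.334 and 0.361. Without no-UVB males 1 and 2, *Dbp* (-1.10, adjusted p = 0.03) and *Nr1d1* (-0.89, adjusted p = 0.0827) remained past the threshold, and *Per1* (-0.73, adjusted p = 0.199), *Cry2* (-0.40, adjusted p = 0.28) and *Nr1d2* (-0.39, adjusted p = 0.218) did not. Without no-UVB males 3 and 4, *Per1* (-1.19, adjusted p = 0.0158), *Dbp* (-0.59, adjusted p = 0.0893) and *Cry2* (-0.50, adjusted p = 0.0691) remained, and *Nr1d1* (-0.44, adjusted p = 0.206) and *Nr1d2* (-0.34, adjusted p = 0.14) did not. Without no-UVB females 3 and 4 only *Nr1d1* passed (-0.84, adjusted p = 0.0557), and the values of *Per1* and *Dbp* were -0.80 and -0.64, each with an adjusted p from edgeR above the threshold (0.107 and 0.109). Without no-UVB females 1 and 2 the difference was below 0 and past the threshold for 6 genes. *Per3* (-0.77, adjusted p = 0.0194) and *Ciart* (-1.07, adjusted p = 0.0426) now passed beside *Per1*, *Dbp*, *Cry2* and *Nr1d2*, and *Nr1d1* did not (-0.52, adjusted p = 0.191).

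Males and females already differed without UVB. In the controls 5 of the 10 clock genes were higher in males, against 7.21% of all genes, and 1 was lower, against 4.58%. *Per1* was at 241 ± 45.1 CPM (SD, n = 4) in no-UVB males and 135 ± 18.7 CPM in no-UVB females, with a log2 difference of 0.84 (SE 0.166, edgeR adjusted p = 0.00612). *Ciart* was at 19.0 ± 1.53 CPM in males and 11.0 ± 3.13 CPM in females (0.78, SE 0.181, adjusted p = 0.0144). For both genes the lowest male lay above the highest female. *Dbp* (0.46, adjusted p = 0.0728), *Cry2* (0.35, adjusted p = 0.0306) and *Nr1d2* (0.23, adjusted p = 0.0813) were also higher in males, and of these *Nr1d2* did not overlap. Non-overlapping levels, higher in males, were thus found for 3 of the 10 genes and for 7.80% of all genes. *Bmal1* was lower in males (-0.33, SE 0.116, adjusted p = 0.0934), at 13.0 ± 1.31 against 16.3 ± 2.77 CPM. Over the 16 fits that each left out a mouse, *Per1* and *Ciart* kept their call in all 16, *Cry2* in 15, *Dbp* in 11, *Nr1d2* in 7 and *Bmal1* in 6. Without no-UVB males 1 and 2, *Nr1d1* (0.62), *Dbp* (0.69) and *Ciart* (0.82) were higher at adjusted p values of 0.0436, 0.0179 and 0.0783, and *Per1* (0.59, adjusted p = 0.114) and *Cry2* (0.30, adjusted p = 0.218) were not past the threshold. Without males 3 and 4, *Per1* (1.05, adjusted p = 0.00307), *Cry2* (0.41, adjusted p = 0.0534) and *Ciart* (0.74, adjusted p = 0.0737) were higher, and *Dbp* (0.18, adjusted p = 0.537) was not past the threshold. *Nr1d2* and *Bmal1* did not pass in either of these fits. Without no-UVB females 3 and 4, *Per1*, *Ciart* and *Nr1d1* were higher in males and *Cry1* was lower (-0.46, adjusted p = 0.0716), while *Dbp* (0.24, adjusted p = 0.452), *Cry2* (0.28, adjusted p = 0.177), *Nr1d2* (0.11, adjusted p = 0.53) and *Bmal1* (-0.14, adjusted p = 0.579) did not pass. Without females 1 and 2 the 6 calls held and *Per3* was higher in males as well (0.42, adjusted p = 0.0539).

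After UVB the sexes lay closer in most clock genes. *Dbp* was at 89.2 ± 7.80 CPM (SD, n = 4) in UVB males and 118 ± 14.5 CPM in UVB females, lower in males by a log2 difference of -0.40 (SE 0.149, edgeR adjusted p = 0.0749, held in 11 of 16 fits that left out a mouse). It was the only one of the 10 past the threshold, as 12.5% of all genes were lower and 12.8% higher in males. At an unadjusted p under 0.05, 2 of the 10 passed against 32.0% of all genes. *Per3* had lower, non-overlapping levels in UVB males as well (-0.35, SE 0.159, adjusted p = 0.145), which with *Dbp* makes 2 of the 10 genes against 9.76% of all genes. *Per1* was at 120 ± 23.7 CPM in UVB males and 133 ± 23.9 CPM in UVB females, a log2 difference of -0.14 (SE 0.166, adjusted p = 0.594). The controls and UVB mice are shared among these comparisons, so that the sex difference in the controls and the difference between the responses are not separate evidence.

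Counts for other gene lists stand beside the same background, 30.5% of all genes lower and 29.0% higher in males, and 7.21% higher in no-UVB males than in no-UVB females. Of the 9 glucocorticoid-induced genes, 3 fell in males, *Tsc22d3* and *Errfi1* past 2-fold, and 4 were higher in no-UVB males than in no-UVB females. Among the 10 immediate-early genes 4 fell and 2 rose in males, and 7 were higher in no-UVB males. *Fos* was at 148, 250, 35.8 and 27.2 CPM in no-UVB males 1 to 4 and at 10.5 to 25.5 CPM in the other 12 mice. Of 10 skeletal muscle markers 8 fell in males, and their summed level was 23470 to 29370 CPM in no-UVB males, 16580 to 20250 CPM in UVB males and 15610 to 23830 CPM in females of both groups. Of 6 fibroblast markers 5 fell in males, from summed levels of 79060 to 86270 CPM to 28380 to 39290 CPM, while females held 12110 to 21850 CPM. Between 94.8% and 95.9% of this sum in no-UVB males came from the collagen genes *Col1a1*, *Col1a2* and *Col3a1*. *Pdgfra* was at 115 ± 5.44 CPM (SD, n = 4) in no-UVB males and 140 ± 25.9 CPM in no-UVB females, and *Dcn* at 2930 ± 351 and 2570 ± 288 CPM. In UVB males 3 of 6 keratinocyte markers rose and 1 fell, with sums of 9069 to 13730 CPM before and 21000 to 30150 CPM after UVB. Of 8 adipocyte markers 4 fell in males, with sums of 1868 to 2796 CPM before and 1594 to 2204 CPM after. Of the 6 leukocyte markers tested, of 7 listed, 4 fell in males, from 279.4 to 310.4 CPM to 234.4 to 268.6 CPM. Of the 8 hair markers 4 had enough reads to be tested in males, where 3 fell and 1 rose. Without no-UVB males 1 and 2, 3 glucocorticoid-induced, 3 immediate-early, 3 fibroblast, 2 adipocyte and 7 of 8 tested hair markers fell in males, and without males 3 and 4 these counts were 6, 7, 4, 5 and 0 of 4. In the same 2 fits 1 and 0 glucocorticoid-induced genes, 3 and 1 immediate-early genes, 4 and 4 keratinocyte markers, 0 and 1 leukocyte markers and 0 and 1 hair markers rose, while 8 muscle and 4 leukocyte markers fell in each. In the controls, 0 glucocorticoid-induced, 1 immediate-early and 1 muscle gene were higher in males without males 1 and 2, and 7, 9 and 3 without males 3 and 4, against 5 muscle genes with all mice.

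In females, where 10.6% of all genes fell and 12.8% rose, 3 of 6 leukocyte markers fell, and 3 of 6 keratinocyte markers rose and 1 fell. Of the fibroblast markers and of the immediate-early genes 1 rose and 1 fell, and 1 of 4 tested hair markers rose. In females 0 of the glucocorticoid-induced, muscle and adipocyte genes passed the test by edgeR (0, 1 and 0 at an unadjusted p under 0.05) or by DESeq2 (0 of each). In the difference between the responses 4.25% of all genes were lower and 2.75% higher. There 6 of 10 muscle, 3 of 6 fibroblast, 3 of 10 immediate-early and 2 of 9 glucocorticoid-induced genes were lower, with 0 higher. Of 6 keratinocyte markers 1 was higher, and 0 adipocyte, leukocyte and hair markers passed. The muscle count was 2 without no-UVB males 1 and 2 and 6 without males 3 and 4. Between the sexes after UVB, 12.5% of all genes were lower and 12.8% higher in males. There 7 of 8 adipocyte, 4 of 6 leukocyte, 2 of 10 muscle and 1 of 6 hair markers were lower, with 0 higher. Higher were 4 of 6 keratinocyte and 3 of 6 fibroblast markers, with 0 lower. Of the glucocorticoid-induced and immediate-early genes 0 passed. The part of these shifts in the clock gene results was not tested.

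**Figure D3:**
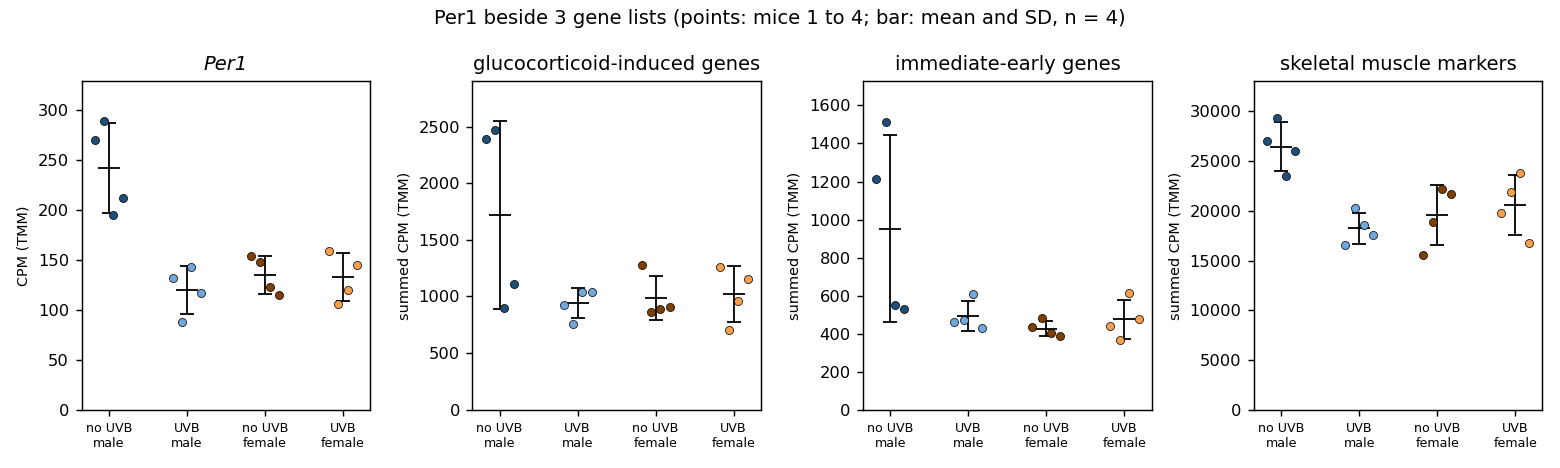
The panels plot, per mouse and in CPM, *Per1* and the summed levels of 9 glucocorticoid-induced genes, 10 immediate-early genes and 10 skeletal muscle markers, with bars for the mean and SD of 4 mice. No-UVB males 1 and 2 stand above the other 14 mice in both middle panels and in *Per1*, while all 4 no-UVB males are high in *Per1*, at 195 CPM or more.

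*Per1* and the pair *Dbp* and *Nr1d1* separated the no-UVB males in opposite ways. Relative to the group mean on the log2 scale, *Per1* was 0.18 and 0.28 higher in males 1 and 2 and lower in males 3 and 4, by -0.29 and -0.17. *Dbp* and *Nr1d1* were lower in males 1 and 2 and higher in males 3 and 4. *Wee1*, a kinase gene of the cell cycle with a known link to the clock, was at 87.9 and 90.8 CPM in no-UVB males 1 and 2 and at 41.9 and 45.8 CPM in males 3 and 4. *Nfil3*, the repressor that competes with DBP for D-boxes, was at 23.8 and 22.7 CPM in no-UVB males 1 and 2 and at 11.2 CPM or less in males 3 and 4. In UVB males *Wee1* was at 23.7 to 48.6 CPM and *Nfil3* at 14.6 to 16.4 CPM.

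The deviations of single mice from their group means showed which clock genes varied together. Over the 16 libraries, the Pearson correlation of these deviations was 0.85 between *Per2* and *Cry1*, 0.84 between *Nr1d2* and *Ciart* and 0.82 between *Per3* and *Dbp*. *Bmal1* had negative values with *Per3* (-0.50), *Cry1* (-0.48), *Nr1d2* (-0.45), *Ciart* (-0.43) and *Per2* (-0.42). *Nr1d1* had values of -0.46 with *Cry1*, -0.42 with *Per1* and -0.36 with *Per2* but 0.36 with *Bmal1*. The points share libraries, depth and cell makeup, and the no-UVB females contribute the widest spread, so that these values are a description of these mice.

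**Figure D4:**
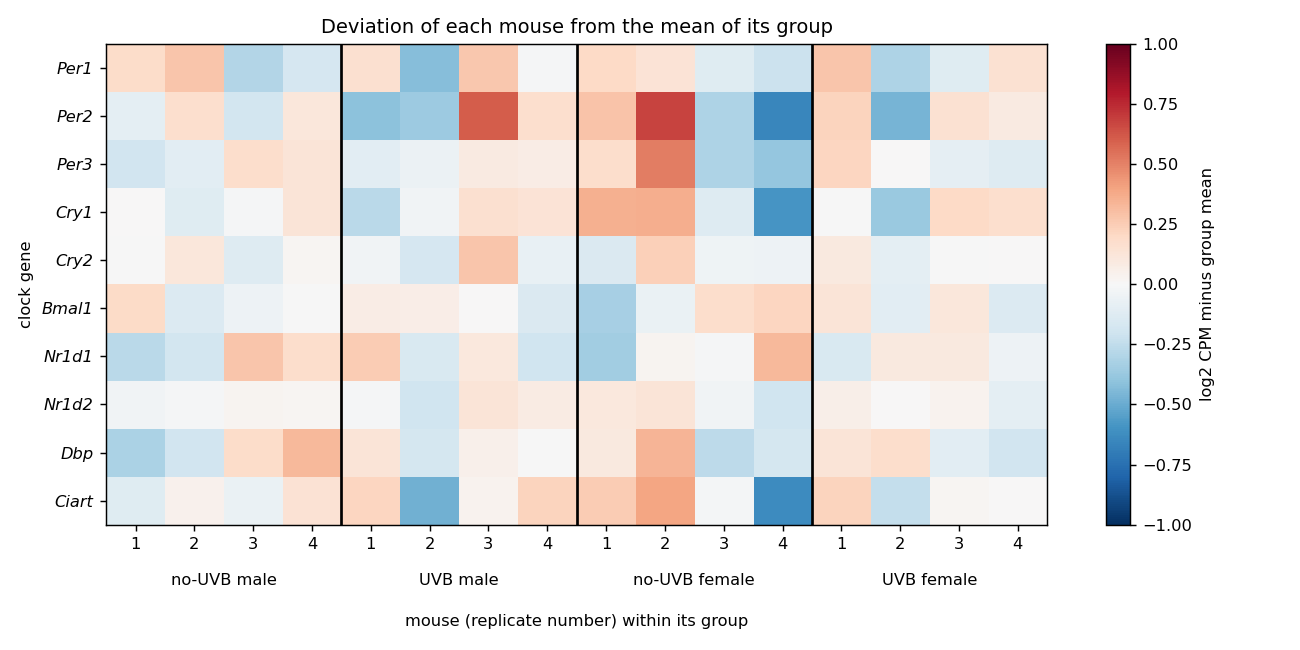
The heat map shows, for each clock gene (rows) and mouse (columns, grouped), the log2 CPM minus the mean of the 4 mice of that group, red for higher and blue for lower. In the no-UVB females *Per2*, *Per3*, *Cry1* and *Ciart* are red in mice 1 and 2 and mostly blue in 3 and 4, and *Bmal1* is the reverse.

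The genes whose levels ran most like *Dbp* over the 16 libraries, among 15117 genes with a symbol and a mean of at least 1 CPM and clock genes left out, were *Evc* (r = 0.916), *Rftn2* (0.916), *Osr2* (0.909), *Hdac5* (0.908) and *Dym* (0.898). Among the clock genes *Nr1d2* was closest to *Dbp* (r = 0.90), then *Nr1d1* (0.85) and *Per3* (0.72), while *Cry1* was at -0.51. The genes most like *Bmal1* were *Mgat5b* (r = 0.878), *Ptpn5* (0.828), *Ifi44* (0.811), *2310002F09Rik* (0.801) and *Gm15987* (0.798). These correlations include the differences between the 4 groups, and the points share depth and cell makeup.

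A further 22 genes of the clock were followed as a list. In males 7 rose, 5 fell and 10 did not pass the test, against 29.0% and 30.5% of all genes that rose and fell. In females 2 rose and 2 fell, against 12.8% and 10.6%. These shares lie near the background. Of the genes named below, *Csnk1e*, *Npas2* and *Wee1* did not pass in males without no-UVB males 1 and 2 (adjusted p = 0.315, 0.217 and 0.349), and *Noct* did not without males 3 and 4 (adjusted p = 0.229). In all, 7 rose and 4 fell without males 1 and 2, and 6 rose and 7 fell without males 3 and 4. *Nfil3*, with a log2 fold change of -0.11 (adjusted p = 0.764) on all 8 males, was higher after UVB in the first of these fits (0.57, adjusted p = 0.00221) and lower in the other (-0.54, adjusted p = 0.00063). *Bhlhe41* was lower in the first alone (-0.60, adjusted p = 0.00183) and *Nampt* in the other alone (-0.33, adjusted p = 0.0126). The partner genes of *Bmal1* moved in both directions. *Clock* was at 67.2, 65.5, 64.0 and 59.1 CPM in no-UVB males and at 92.0, 87.5, 80.0 and 75.3 CPM in UVB males, and rose there (log2 fold change 0.41, adjusted p = 0.000706). In females its log2 fold change was -0.04 (adjusted p = 0.828), and the difference between the responses was 0.44 (adjusted p = 0.0891), with adjusted p values of 0.199 without no-UVB males 1 and 2, 0.167 without males 3 and 4 and 0.26 without no-UVB females 3 and 4. *Npas2* fell in males (-0.54, adjusted p = 0.0394) and in females (-0.79, adjusted p = 0.0346), where it was at -0.39 (adjusted p = 0.246) without no-UVB females 3 and 4. *Bmal2*, the paralog of *Bmal1*, rose in males (0.77, adjusted p = 0.00064) and in females (0.43, adjusted p = 0.00682), without overlap in either sex.

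*Tef* and *Hlf*, the relatives of *Dbp* that bind the same D-boxes, fell in males as *Dbp* did. *Tef* went from 340 ± 15.3 to 250 ± 21.7 CPM (SD, n = 4) in males, a log2 fold change of -0.43 (edgeR adjusted p = 0.000516), and stood at 282 ± 45.3 and 286 ± 8.97 CPM in females. The difference between its responses was -0.46 (adjusted p = 0.0692), and it did not pass without no-UVB males 1 and 2 (0.167), males 3 and 4 (0.133) or females 3 and 4 (0.198). *Hlf* fell in males (-0.76, adjusted p = 0.00132), with a female value of -0.19 (adjusted p = 0.442) and a difference of -0.58 (adjusted p = 0.152). *Rora*, an activator that competes with REV-ERB at ROREs, rose in males (0.41, adjusted p = 0.00214), with a value of 0.35 in females (adjusted p = 0.101).

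Genes that control the stability of the clock proteins also changed. *Btrc*, a part of the ubiquitin ligase that marks PER for degradation, fell in males (-0.82, adjusted p = 3.53e-06) and in females (-0.53, adjusted p = 0.00697), the fall in males having the smallest adjusted p of the 22. It was at 25.3 to 28.1 CPM in no-UVB males and 14.6 to 15.4 CPM in UVB males. The casein kinase genes *Csnk1d* (0.30, adjusted p = 0.000372) and *Csnk1e* (0.20, adjusted p = 0.0365), whose products phosphorylate PER, rose in males, as did *Fbxw11* (0.15, adjusted p = 0.0266), a relative of *Btrc*. *Usp2*, a deubiquitinase gene, rose in females (0.30, adjusted p = 0.0991), a call lost without either pair of no-UVB females (adjusted p = 0.173 and 0.289). *Noct* rose in males (0.20, adjusted p = 0.0466). *Wee1* fell in males (-0.98, adjusted p = 0.0473), a call kept in 3 of 8 fits that left out 1 male.

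Without UVB, *Tef*, *Usp2*, *Wee1* and *Nampt* were higher in males than in females and none of the 22 was lower, against 7.21% and 4.58% of all genes. *Nampt* was at 154, 150, 104 and 109 CPM in no-UVB males 1 to 4 and at 97.1 to 104 CPM in no-UVB females, and *Wee1* in no-UVB females was at 22.3 to 44.0 CPM, so that for both genes males 3 and 4 lay at or near the female range. None of the 4 genes passed without no-UVB males 1 and 2 (adjusted p from 0.19 to 0.791) or without no-UVB females 3 and 4 (0.109 to 0.638). Without males 3 and 4, *Tef* did not pass (0.22, adjusted p = 0.346). *Usp2*, at 78.5 ± 11.1 CPM in males and 55.7 ± 5.50 CPM in females, had the smallest adjusted p of the list (log2 difference 0.49, edgeR adjusted p = 0.0241, n = 4 each). After UVB 4 of the 22 were higher in males (*Clock*, *Csnk1d*, *Fbxw11* and *Noct*) and 2 lower (*Btrc* and *Hlf*), near the 12.8% and 12.5% of all genes.

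**Figure D5:**
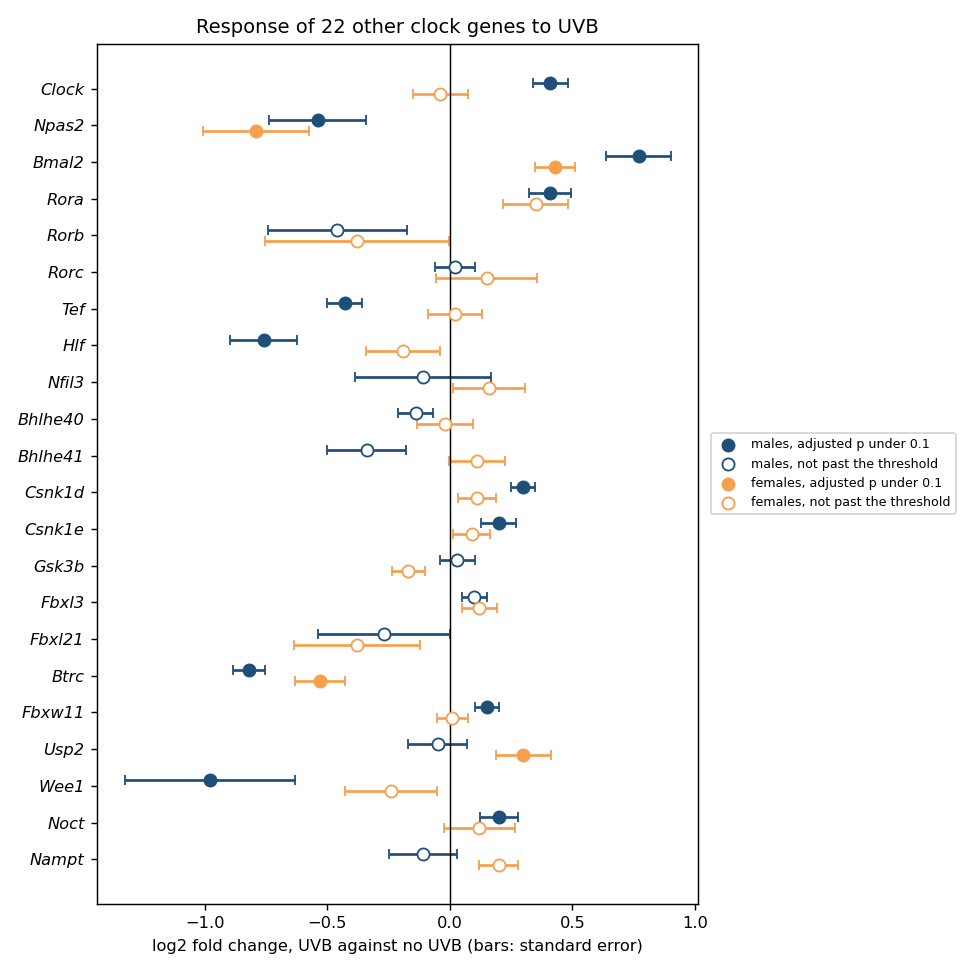
Points give the edgeR log2 fold change of UVB against no UVB for 22 further clock genes in males (blue) and females (orange), with bars of 1 standard error, and filled points mark an adjusted p under 0.1. *Btrc* and *Npas2* lie left of 0 and *Bmal2* right of 0 with filled points in both sexes.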

How the data were processed

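Poly(A) RNA was made into libraries with a directional kit, and the authors counted reads per Ensembl gene with STAR on GRCm39. The deposited values are whole-number counts, without normalization. The STAR version and annotation release are not given in the sources used here. Columns without regard to strand were an alternative. The clock genes and lists were chosen with earlier results of these data known. Symbols and positions came from GENCODE M39, which matched 54749 of 55359 identifiers. Genes on the opposite strand overlap *Nr1d1* (*Thra*), *Dbp* (*Sphk2*) and *Per3* (*Uts2*), and the strand of the kit separates them, as it does the long noncoding RNAs opposite every clock gene but *Cry1* and *Dbp*. On the same strand, *Gm72383* overlaps *Per1* and *Gm72779* overlaps *Nr1d1*. Neither was among the genes counted, so that their reads cannot be told from those of the clock genes.

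Tests used edgeR 4.0.16 in R 4.3.3 (filterByExpr, TMM, robust quasi-likelihood test, Benjamini-Hochberg over all genes). DESeq2 1.42.0 and apeglm 1.24.0 served the alternatives, and Python 3.11.15 (pandas 2.3.3, matplotlib 3.10.9) the rest. The response of a sex came from its own 8 mice, and the interaction and sex differences from all 16. The thresholds were an adjusted p under 0.1 and, where stated, a log2 fold change past 1. They follow the methods of the study, which applied the latter to apeglm-shrunken values, whereas here it was applied to unshrunken edgeR values, with apeglm as an alternative. All 10 clock genes and the listed clock genes that passed are named, with the 5 genes most like *Dbp* and *Bmal1* (log2 CPM, prior count 2). Alternatives were DESeq2 size factors, upper quartile scaling, DESeq2's Wald test, apeglm, other count filters, all 16 mice in 1 fit, an adjusted p under 0.05, the replicate number as a block and leaving out each mouse. Leaving out pairs of no-UVB mice was added after seeing the data. Between 70.08% and 79.22% of each library lay on genes, 10.12 to 16.36% was unmapped, 8.3 to 13.69% lay outside genes and 1.17 to 1.34% was ambiguous. Replicates of a group differed by a chi-square of 10.4 to 109 per degree of freedom, more than the sampling noise of duplicates. On simulated data with 200 genes changed by 1 on the log2 scale, 199 were recovered for the male response, 197 for the female response and 178 for the interaction, with 27, 26 and 21 false calls. The simulation gave every gene the same relative spread and held no pairs of mice that differ within a group. Its rates therefore do not apply to genes with a wider spread, such as *Per2* in females.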

Additional observations from a re-analysis of the deposited data

Results flagged for a closer look

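For 5 clock genes the response to UVB differed between the sexes in the test of the difference itself (edgeR, all 16 mice). The difference on the log2 scale, male response minus female response, was -0.98 for *Per1*, -0.86 for *Dbp*, -0.68 for *Nr1d1*, -0.45 for *Cry2* and -0.36 for *Nr1d2*. Only *Per1* and *Dbp* passed in every fit that left out 1 mouse. None of the 5 passed in every fit that left out a pair of no-UVB mice. By edgeR the adjusted p was 0.199 for *Per1* without males 1 and 2, and 0.109 for *Dbp* without females 3 and 4. In each of the 5 the level was higher in no-UVB males than in no-UVB females on average, and the sex difference after UVB was -0.40 for *Dbp* and between -0.28 and -0.10 for the other 4. The immediate-early and glucocorticoid-induced genes were also high in 2 of the 4 no-UVB males. Summed fibroblast markers, of which the collagen genes *Col1a1*, *Col1a2* and *Col3a1* made up 94.8% to 95.9% in no-UVB males, were higher in all 4 no-UVB males than in any other mouse. The muscle sum of no-UVB male 3 (23470 CPM) lay below that of UVB female 3 (23830 CPM). Of 10 muscle markers 5 were higher in no-UVB males than in no-UVB females. In the difference between the responses 6 of them were lower, with 0 the other way in either test. The part of these genes in the clock gene differences was not tested. No single mouse stood apart by Dixon's test among the 40 groups of 4 mice examined, 1 per clock gene and group, although chance flags about 1 in 20. The test cannot flag 2 mice that deviate together from the other 2, the pattern described above for no-UVB mice.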

How the results depend on the processing

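The male counts of 7 falls and 1 rise were the same under every alternative run on whole groups, and 7 or 8 fell when 1 mouse was left out. Past 2-fold, 1 clock gene was counted in males with counts without regard to strand, with apeglm shrinkage and without no-UVB males 3 and 4 (*Per1* in the last, in place of *Dbp* and *Nr1d1*), and 0 to 3 when 1 mouse was left out, with 0 without UVB male 2. In females 0 to 2 fell when 1 mouse was left out and 0 at an adjusted p under 0.05 (by edgeR 1 had an unadjusted p under 0.05, and DESeq2 called 1 at 0.1). Without no-UVB females 1 and 2, 3 rose and 2 fell. The difference between the responses was lower in 2 to 5 genes when 1 mouse was left out, in 3 with every gene of at least 1 count, in 2 without no-UVB males 1 and 2, in 3 without no-UVB males 3 and 4, in 1 without no-UVB females 3 and 4, in 6 without no-UVB females 1 and 2 and in 2 at an adjusted p under 0.05. In the controls 3 to 6 were higher and 0 or 1 lower in males when 1 mouse was left out. There, 3 were higher and 0 lower with every gene of at least 1 count, at an adjusted p under 0.05 and without no-UVB males 1 and 2 or 3 and 4, 3 were higher without no-UVB females 3 and 4, and 6 were higher without no-UVB females 1 and 2. After UVB 0 to 2 were lower when 1 mouse was left out, 0 with every gene of at least 1 count or at an adjusted p under 0.05, and 2 without no-UVB females 1 and 2 or 3 and 4.

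Replicate numbers were not shown to pair mice across groups. Deviations of same-numbered mice correlated by -0.07 to 0.02 in males and -0.11 to 0.22 in females. There, no-UVB females 1 and 3 matched their own number best. Within no-UVB males the deviations correlated by 0.09 (mice 1 and 2) and -0.04 (3 and 4), against -0.55 to -0.47 across these pairs. In no-UVB females the values were -0.02 and -0.07 against -0.56 to -0.33. In UVB females they were -0.18 and -0.07 against -0.55 to -0.33, and in UVB males -0.4 and -0.28 against -0.42 to -0.24. With the replicate number as a block, 0 clock genes were lower in males both in the controls (*Bmal1*, adjusted p = 0.116) and after UVB (*Dbp*, adjusted p = 0.116), and *Dbp* in the controls had an adjusted p of 0.109. The block changed no other call of a clock gene.

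Where a clock gene's sign differed from that of the fit on all mice, neither value passed the test, although between the fits without either pair of no-UVB females the opposite value did pass for *Per2*, *Per3* and *Dbp* in females and for *Cry1* and *Per3* in the controls. With upper quartile scaling *Bmal1* was at -0.04 in males, *Per3* at -0.01 in females and *Ciart* at -0.01 between the sexes after UVB. Without no-UVB males 3 and 4 the sex difference of *Per3* in the controls was -0.11. Without no-UVB females 1 and 2 the female responses of *Per1*, *Nr1d2* and *Dbp* were 0.15, 0.03 and 0.03, the difference between responses was -0.12 for *Cry1*, and the sex difference in the controls was 0.24 for *Cry1*. Without females 3 and 4 the female responses of *Per2*, *Per3* and *Ciart* were -0.28, -0.28 and -0.09, the difference between responses was 0.15 for *Per2*, and the sex difference in the controls was -0.31 for *Per2* and -0.28 for *Per3*. When 1 mouse was left out, *Per2* ranged from -0.38 to 0.00 and *Bmal1* from -0.00 to 0.10 in males, and *Per1* from -0.12 to 0.07, *Per2* from -0.06 to 0.38 and *Per3* from -0.09 to 0.23 in females. The sex difference ranged from -0.09 to 0.35 (*Per2*) and from -0.09 to 0.22 (*Per3*) in the controls and from -0.04 to 0.16 (*Ciart*) after UVB. The cause was not tested. With 4 mice per group these data do not limit small changes of the genes with a wide spread, such as *Per2*.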
